A study of Homo sapiens with 10 samples.

Results

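Long noncoding RNAs with at least 1 site of RNA 5-methylcytosine (m5C) were described in MDA-468, a human breast cancer line, and MCF-10A, an immortalised, non-tumorigenic human breast epithelial line. Members were chosen by name and by having a site: genes called LINC plus a number, genes whose name ends in -AS plus a number, SNHG and MIR host genes with a number, and H19, MALAT1 and NEAT1. This rule found 365 genes of the 6000 named genes with a row in the deposited files. There were 180 LINC genes, 169 antisense genes, 7 SNHG genes, 6 MIR host genes and the 3 genes chosen by name. All 365 carried a noncoding type, long noncoding or antisense RNA, in the RefSeq gene table. Of the 4428 symbols in that table that fit the naming rule, 8.24% thus had a site. The share was 7.81% of 2304 LINC symbols, 8.28% of 2041 antisense symbols, 24.1% of 29 SNHG symbols and 11.8% of 51 MIR host symbols. Since a site was needed for membership, having one is no finding.

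The 10 samples formed 5 groups of 2, namely methylated RNA immunoprecipitation (MeRIP) and input of MDA-468, MeRIP and input of MCF-10A, and technical repeats of the latter line's MeRIP, all without treatment. Each line stands for its tissue as 1 culture line, and the labels give every sample a culture text that names MDA-MB-468. Polyadenylated RNA was broken into fragments, pulled down with an antibody against 5-methylcytosine and sequenced beside its input, so a site is a stretch of enriched fragments and not a single base. The deposited files held 1 merged list of sites for each line, 5194 sites long for MCF-10A and 8320 for MDA-468, plus 1 table of differential sites. No value belonged to a single library, so replicate error and sequencing depth are unknown, no test between the lines was possible, and the identity of the lines could not be checked against expressed markers. Intervals given for shares are exact Clopper-Pearson 95% intervals, which cover only the counting of genes or sites. A gene with a site in 1 list is not shown to lack the mark in the other line, and the amount of each RNA was not analysed here.

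Long noncoding RNAs are transcribed and often spliced and polyadenylated like messenger RNAs but are not known to encode proteins. LINC genes lie between coding genes, and -AS genes are read from the strand opposite a gene whose name they carry. SNHG genes carry small nucleolar RNAs in their introns, and MIR host genes carry microRNAs. m5C is written on RNA by enzymes of the NSUN family and by DNMT2, and reader proteins of m5C such as ALYREF and YBX1 act in RNA export and stability.

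Many of these RNAs had a short word in common. Among GENCODE v29 transcripts of the members, the 14-nt word found in the largest number of member genes was CCTGTAATCCCAGC or its reverse complement GCTGGGATTACAGG, which is part of the consensus of Alu elements, the most abundant short repeats of the human genome. Because this word was derived from the members' own transcripts, its frequency among them is a description. Of the 12 members with an authors' p-value of 0 in MCF-10A, 9 hold it, KDM4A-AS1 does not, and HECTD2-AS1 and LINC01530 had no matched transcript. All 12 had sites in both lines, a group of which 60.6% held the word, against 48.4% of all members. SLFNL1-AS1, LINC02897, PAXBP1-AS1 and PTPRG-AS1 hold it in the reverse orientation, LINC00294, LINC00924 and LINC01502 in the forward one, and LINC00665 and CKMT2-AS1 in both. Holding the word does not place an m5C site at it, because the sites are in hg19 and no hg19 sequence was used here.

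Most long noncoding members had a site in both lines. Of the 364 members with a site in a list, 221 had one in both lists (60.7%), 52 only in that of MCF-10A (14.3%) and 91 only in that of MDA-468 (25%), while NEAT1 stood in the differential table alone. Over all 5943 named genes with a site in a list, the corresponding shares were 50.2% for both lines, 11.7% for MCF-10A only and 38.1% for MDA-468 only. Among genes with a site in 1 line, MDA-468 held 91 of 143 members (63.6%, interval 55.2 to 71.5%) and 2266 of 2960 genes of any kind (76.6%, interval 75 to 78.1%). These shares depended on the length of the lists. With the MDA-468 list shortened to the length of the MCF-10A list by p-value, 90 members had a site only in MCF-10A (28.5%) and 43 only in MDA-468 (13.6%), against 22.6% and 23.6% of all genes, and a site in both lists was then held by 57.9% of members against 53.8% of all genes. With a limit of 1e-10 on the p-values of both lists, the member counts were 87 (27.4%) and 48 (15.1%), against 21.4% and 25.1% of all genes, and the shares in both lists were 57.5% and 53.5%. No statement on which line marks more long noncoding RNAs is therefore made.

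LINC and antisense genes were divided between the lines in much the same way. Of the 180 LINC members, 116 had a site in both lists (64.4%), 23 only in MCF-10A (12.8%) and 41 only in MDA-468 (22.8%). Of the 169 antisense members, 98 were in both lists (58.0%), 24 only in that of MCF-10A (14.2%) and 47 only in that of MDA-468 (27.8%). Among members with a site in 1 line, MDA-468 held 64.1% of LINC genes and 66.2% of antisense genes. The SNHG genes had a site in both lists for 5 of 7 and in MCF-10A only for 2. Of the 6 MIR host genes, 2 were in both lists, 3 only in that of MCF-10A and 1 only in that of MDA-468.

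**Figure D1:**
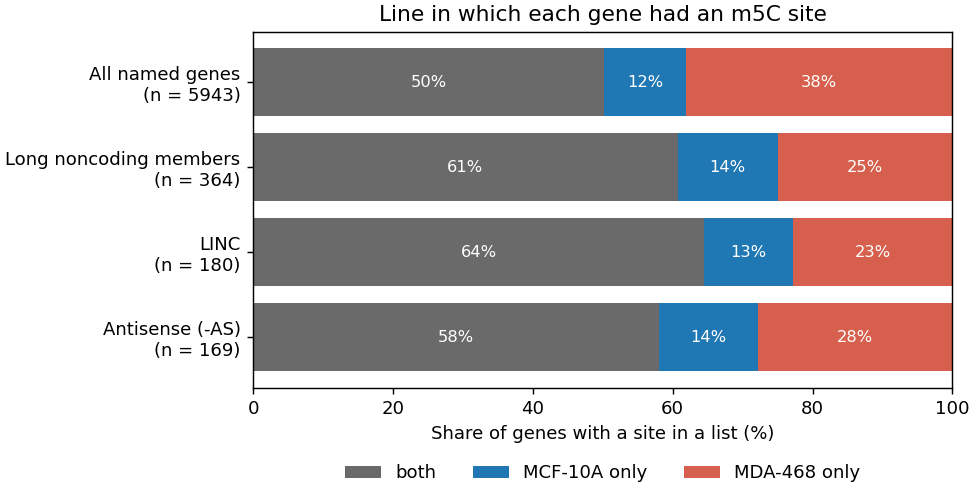
Share of genes (%) with a site in both lists, in MCF-10A only or in MDA-468 only, for all 5943 named genes of the lists, for the long noncoding members, and for the LINC and antisense members among them. With the lists as deposited, 60.7% of members and 50.2% of all named genes are in both lists; with lists of equal length, not drawn here, these shares are 57.9% and 53.8%.

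Of 3 much-studied RNAs, MALAT1 and H19 had list sites in MDA-468 only, and NEAT1 had none in either list. MALAT1, an abundant RNA of nuclear speckles, had 1 site, in MDA-468, at chr11:65267028-65267267 (hg19, plus strand), 240 nt long with an authors' p-value of 0. A site within it, at chr11:65267118-65267267, in the authors' deposited table had a log2 fold change of 2.04, toward MDA-468, and a fold enrichment (MeRIP over input) of 1.30. That enrichment in the authors' deposited table was the lowest of all 87 sites in members, while the log10 of its differential false discovery rate was -234. NEAT1, the scaffold of nuclear paraspeckles, appeared in the authors' deposited table alone, with a site at chr11:65192367-65192517, a log2 fold change of -2.13 and a fold enrichment of 2.24. H19, an imprinted RNA expressed mainly in the fetus, had 3 sites, all in MDA-468. These lay on the minus strand of chromosome 11, at 2016854 to 2017093 with a p-value of 6.3e-21, at 2017752 to 2017901 with 3.2e-13, and at 2018349 to 2018468 with 1e-11.

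The SNHG genes with sites in both lines had matching positions. SNHG16 had 2 sites in each list on chromosome 17, at 74559783 to 74560112 (p-value 1e-100) and 74560292 to 74560531 (6.3e-51) in MCF-10A, and at 74559813 to 74559932 (4.3e-08) and 74560352 to 74560561 (7.9e-17) in MDA-468. SNHG20 had a site of 767 nt in MCF-10A at chr17:75090153-75090919 with a p-value of 1e-202. In MDA-468 the same stretch of SNHG20 held 2 shorter sites, of 208 nt (6.3e-19) and 266 nt (2e-20). SNHG7 had 1 site in each line on chromosome 9, of 271 nt over 2 exon blocks in MCF-10A (p-value 1e-168) and of 211 nt in MDA-468 (1e-22). SNHG4 had a site of 240 nt in MCF-10A (1e-64) and of 180 nt in MDA-468 (7.9e-14), both ending at position 138618754 of chromosome 5. The sites of SNHG33 on chromosome 3 had p-values of 2e-19 and 4e-07 in MCF-10A and MDA-468. SNHG3 and SNHG10, both marked in MCF-10A alone, had short sites, 91 nt in SNHG3 (7.9e-28) and 90 nt in SNHG10 (4e-12). In each of these pairs the MCF-10A site had the smaller p-value, and a p-value depends on depth as well as on enrichment, so these are not levels to compare.

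MIR host genes hold microRNAs of known sequence, and the mature forms below (RefSeq, GRCh38.p14) are some of those that the marked hosts give rise to. Forms from MIR3936HG, MIR3945HG and MIR646HG are not shown. Capitals mark the seed, bases 2 to 8, which pairs with target RNAs. From MIR17HG, host of a cluster known to promote growth in cancers, miR-17-5p and miR-20a-5p share a seed, while miR-18a-5p and miR-92a-3p have others. The miR-19a-3p and miR-19b-3p forms of that cluster, which share a further seed, are not shown. From MIR210HG 1 arm is shown, from MIR600HG its only listed form, and from H19, which also hosts a microRNA, the miR-675-5p arm.
hsa-miR-17-5p: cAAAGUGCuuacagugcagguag
hsa-miR-20a-5p: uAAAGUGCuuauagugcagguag
hsa-miR-18a-5p: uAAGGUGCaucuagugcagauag
hsa-miR-92a-3p: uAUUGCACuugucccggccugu
hsa-miR-210-3p: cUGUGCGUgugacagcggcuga
hsa-miR-600: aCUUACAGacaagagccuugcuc
hsa-miR-675-5p: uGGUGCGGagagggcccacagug

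Of these hosts, MIR17HG had 1 site, in MCF-10A, at chr13:92005187-92005366 (p-value 2e-38). MIR210HG, whose microRNA is induced in hypoxia, had a site in both lines on chromosome 11, at 566644 to 566943 in MCF-10A (2.5e-71) and at 566673 to 566913 in MDA-468 (3.2e-24). MIR3945HG also had 1 site in each line, of 331 nt in MCF-10A (1.3e-47) and 181 nt in MDA-468 (4.3e-10). MIR646HG had 1 site of 210 nt in MCF-10A (2e-21), and MIR3936HG 2 sites in MCF-10A, of 150 nt (2.5e-20) and 61 nt (6.3e-14). The longer MIR3936HG site overlapped a site of SLC22A4, a carnitine and ergothioneine transporter gene, on the opposite strand. MIR600HG had 1 site of 270 nt in MDA-468, at chr9:125874645-125874914 (2e-12). The sites are regions of the host RNA, and whether any lies in a microRNA hairpin was not analysed here.

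Of the sites in long noncoding RNAs, most were shared between the lines. The members had 363 sites in MCF-10A, in 273 genes, and 447 in MDA-468, in 312 genes. Sharing meant that exon blocks of a site in each list had 1 bp or more in common on the same strand. In MCF-10A, 267 of the 363 member sites were shared (73.6%, interval 68.7 to 78.0%), against 74.3% of all sites in the list. In MDA-468, 273 of the 447 were shared (61.1%, interval 56.4 to 65.6%), against 47.7% of all sites. With lists of equal length the shares were 59.0% of member sites in MCF-10A, against 62.4% of all, and 71.7% in MDA-468, against 63.2% of all, so the order of the lines depends on list length. By type, 76.1% of LINC and 72.0% of antisense sites were shared in MCF-10A, and 61.5% and 60.3% in MDA-468.

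Shared sites had smaller p-values than the rest, in members as in the whole lists. The median −log10 p of member sites in MCF-10A was 65.3 where shared and 19.3 where not, against 76.9 and 18.5 for all sites. In MDA-468 the medians were 17.2 and 10.0, against 18.3 and 9.59. Over all member sites the median −log10 p was 45.8 in MCF-10A, below the 52.6 of the whole list, and 13.7 in MDA-468, above the 12.4 of the whole list. Of the member sites, 24 (6.61%) stood in the top 10% of the MCF-10A list by p-value and 59 (13.2%) in the top 10% of the MDA-468 list.

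**Figure D2:**
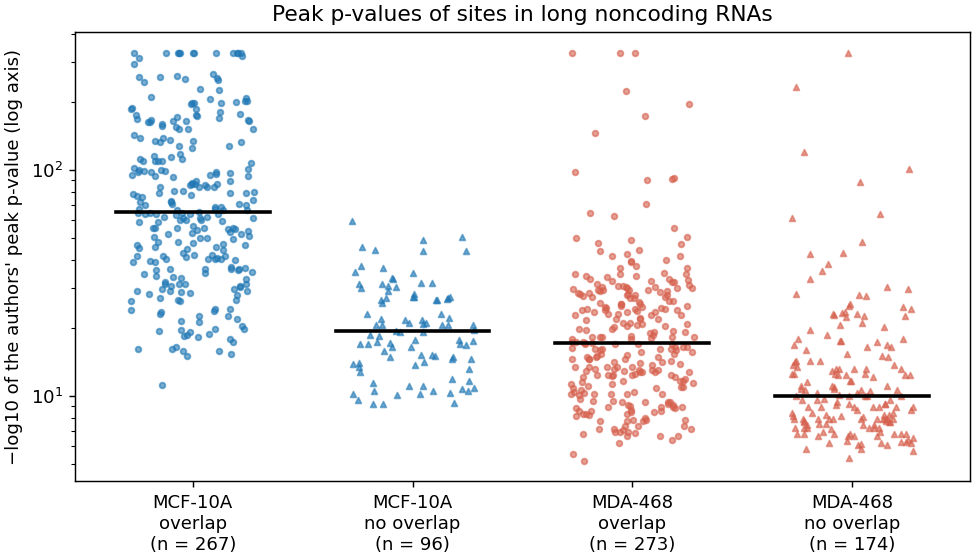
−log10 of the authors' p-value (log axis) for each of the 810 sites in long noncoding members, by line and by whether the site overlapped a site of the other list; bars are medians, circles overlap and triangles do not. Sites with a deposited p-value of 0 are drawn at 330; in both lines the overlapping sites lie higher, as they do in the whole lists, with member medians of 65.3 against 19.3 and 17.2 against 10.0.

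A p-value of 0 was deposited for 12 member sites of the MCF-10A list and 4 of the MDA-468 list. Those in MCF-10A were in SLFNL1-AS1, KDM4A-AS1, LINC02897, HECTD2-AS1, LINC00294, LINC00924, LINC00665, CKMT2-AS1, PTPRG-AS1, LINC01502, LINC01530 and PAXBP1-AS1. All 12 overlapped a site in MDA-468. LINC00294, for example, had sites of 358 nt at chr11:33098202-33098559 with the same edges in both lines, with p-values of 0 in MCF-10A and 1.3e-71 in MDA-468. In MDA-468 the 4 were MALAT1, LINC00649, LINC00265 and ZNF566-AS1, followed by LINC01061 with 1e-232. LINC00649 had its site at chr21:35303516-35303964 in MDA-468 (449 nt) and a p-value of 1e-101 at the matching place in MCF-10A. The same stretch of LINC00649 had a log2 fold change of -1.08 in the authors' deposited table, toward MCF-10A, so the smaller p-value and the fold change pointed to different lines.

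Where 1 site matched exactly 1 site in the other line, the MCF-10A site was mostly the longer. There were 250 such pairs in members, with the MCF-10A site longer in 198 (79.2%, against 80.4% of 3539 pairs in all), the MDA-468 site longer in 28 and both equal in 24. Their median lengths were 298.5 nt in MCF-10A and 211 nt in MDA-468. The MDA-468 site lay wholly inside the MCF-10A site in 209 pairs (83.6%, against 84.1% of all pairs). The members were thus near all genes in this respect. Over all member sites, median length was 241 nt in MCF-10A and 181 nt in MDA-468, against 270 and 180 nt for the whole lists. Sites in more than 1 exon block made up 19% of member sites in MCF-10A, against 8.14% of the list, and 12.3% in MDA-468, against 12.2%.

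The longest member sites were in MDA-468. LINC01061 had a site of 2784 nt at chr4:120327396-120330179, LINC00265 one of 2158 nt at chr7:39832005-39834162, and LINC01000 had sites of 2156 and 1378 nt. EGFR-AS1 followed with 951 nt. In MCF-10A the longest were in LINC02591 (901 and 720 nt), SLC25A25-AS1 (894 nt), SNHG20 (767 nt), LINC00963 (746 nt) and LINC02982 (744 nt). In the MDA-468 site of LINC00265 lay 2 separate MCF-10A sites, of 390 nt (p-value 1.6e-37) and 150 nt (6.3e-17).

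Most members had a single site in a line. In MCF-10A, 70 of 273 members had 2 or more sites (25.6%, against 22.9% of all genes in the list), and in MDA-468, 86 of 312 (27.6%, against 29.3%). Of the 221 members with sites in both lists, 140 had 1 in each, 174 had equal numbers, 21 had more in MCF-10A and 26 more in MDA-468. In 9 of them no site overlapped between the lines, namely CD27-AS1, EHBP1-AS1, ITPK1-AS1, LINC00174, LINC00668, LINC00987, LINC00999, SLC7A11-AS1 and ZNF252P-AS1.

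LINC02591 had the most sites of any member, 4 in MCF-10A and 11 in MDA-468. Those in MDA-468 were spread over chr1:149282655-149290482, the strongest at 149285984 to 149286824 with a p-value of 1e-120 and no overlap with MCF-10A. However, 82.9% of the 50-nt words in LINC02591 transcripts also occurred in transcripts of other genes, so its reads may belong elsewhere. LINC01000 had 6 sites in each line, and its 6 in MCF-10A lay at chr7:128295218-128299766 while 3 of those in MDA-468 lay upstream, from 128292376 to 128293363. LINC00999 had 1 site in MCF-10A, spanning 38727843 to 38734456 of chromosome 10 over several exons, and 6 in MDA-468, all further along, from 38737052 to 38740216. LINC00910 had 4 sites in each line, of which 3 matched. LINC00674 had 3 and 4, LINC00997 1 and 4, and SLFNL1-AS1, SLC25A25-AS1 and LINC00957 2 and 4. HOXA-AS3, read opposite the HOXA genes, had 1 site in MCF-10A (chr7:27194228-27194498, p-value 5e-34) and 5 in MDA-468. The MCF-10A site of HOXA-AS3 lay inside an MDA-468 site of 840 nt, and both overlapped sites of HOXA7 on the other strand.

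EGFR-AS1 had 4 sites, all in MDA-468, at chr7:55247443-55247918 (p-value 4e-23), 55248007-55248957 (5e-39), 55249283-55249402 (2e-30) and 55249580-55256553, the last with 595 nt over 2 exon blocks (2e-19). Its partner EGFR, a receptor tyrosine kinase of epithelial cells, also had sites in MDA-468 only. The labels do not say whether reads kept their strand, so reads of EGFR-AS1 and of EGFR may not be separable. Gene copy number and the amount of either RNA were not analysed here.

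**Figure D3:**
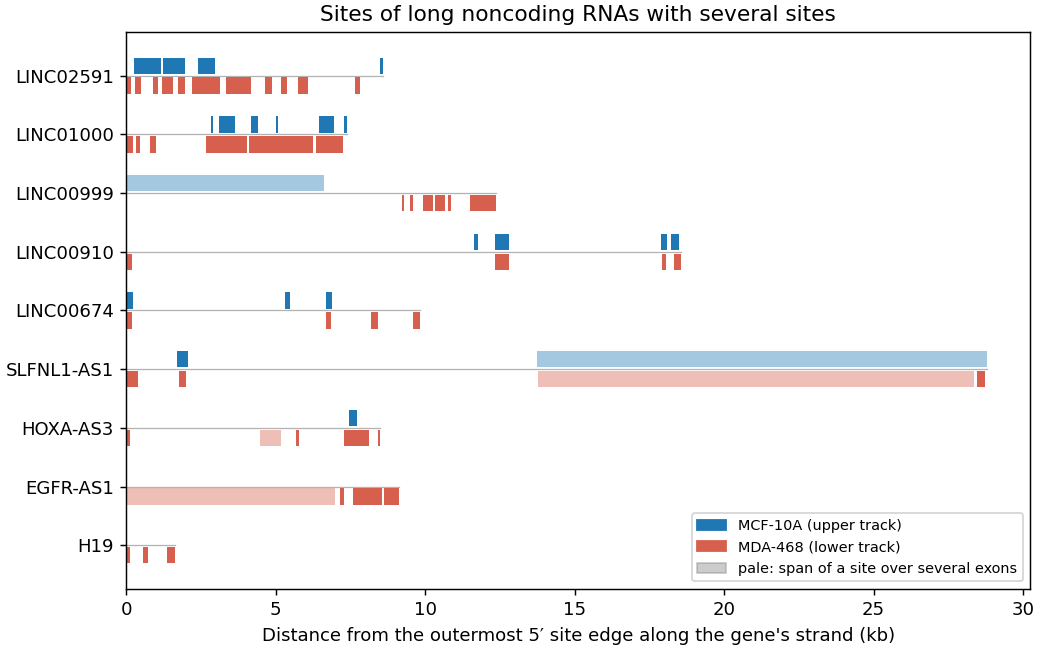
Positions of sites in 9 members with several sites, as distance (kb) from the outermost 5′ site edge along the gene's strand, with MCF-10A sites in the upper and MDA-468 sites in the lower track; pale bars are the genomic span of a site over several exons, introns included. The 6 MDA-468 sites of LINC00999 lie beyond its MCF-10A site, while EGFR-AS1 and H19 have sites in MDA-468 only.

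In all, 107 members had 2 or more sites in a list, 33 of them 3 or more. LINC00265, LINC00671, LINC02210 and ERCC6L2-AS1 had 3 in each line. LINC00330, LINC01012, FBXL19-AS1, LEMD1-AS1, PCED1B-AS1 and WAC-AS1 had 3 in MCF-10A against 2 in MDA-468, and LINC01531 had 3 and 1. LINC00547, LINC01347, HPN-AS1 and RPL26L1-AS1 had 2 and 3, and LINC00942, LINC02897 and RNF213-AS1 had 1 and 3. LINC00336, LINC00865 and DIP2C-AS1 had 3 sites each in MDA-468 alone, like H19. Among those with 2 sites in each line were AFF1-AS1, ARHGEF26-AS1, ASB16-AS1, CARD8-AS1, CCDC18-AS1, CKMT2-AS1, DNAJC27-AS1, ENTPD3-AS1, LINC00294, LINC00311, LINC00649, LINC00663, LINC00665, LINC00926, LINC00996, LINC01160, LINC01426, LINC01558, LINC01907, LINC02139, LINC02275, OIP5-AS1, OTX2-AS1, RAMP2-AS1, SNHG16, TRG-AS1 and UCKL1-AS1. With 2 in MCF-10A and 1 in MDA-468 were AQP4-AS1, ENTPD1-AS1, LINC00598, LINC00670, LINC01016, LINC01226, LINC01299, LINC01588, MAGI2-AS3, RASAL2-AS1, RBM26-AS1, TLR8-AS1, TMEM147-AS1 and TNS2-AS1. With 1 and 2 were BASP1-AS1, KLF3-AS1, LINC00668, LINC00887, LINC01018, LINC01940, LINC02982, SAP30L-AS1, SNHG20, SRRM2-AS1 and TPT1-AS1. With 2 in MCF-10A alone were LINC01122, LINC01551, LMCD1-AS1, LOXL2-AS1, MIR3936HG and WWTR1-AS1. With 2 in MDA-468 alone were CPEB1-AS1, DPP9-AS1, GATA3-AS1, KCNJ5-AS1, LINC01001, LINC01002, LINC01061, LINC01096, LINC01128, LINC01342, LINC01761, PITRM1-AS1, SSTR5-AS1, VPS9D1-AS1 and ZNF22-AS1.

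In the authors' deposited table, 87 sites lay in 79 members. Of these sites in the authors' deposited table, 72 (82.8%, against 78.3% of all 1795) were higher in MCF-10A and 15 (17.2%, against 21.7%) higher in MDA-468. By gene, 70 members had a site higher in MCF-10A and 12 a site higher in MDA-468, with 3 genes in both counts. Of the 364 members with a site in a list, 78 had a differential site (21.4%, against 24.7% of all such genes). Such a site was found for 71 of the 221 members in both lists, for 2 of the 52 only in that of MCF-10A and for 5 of the 91 only in that of MDA-468. These are 32.1%, 3.85% and 5.49%, against 38.8%, 9.37% and 10.8% of all genes with the same patterns. Of the sites higher in MCF-10A, 67 of 72 stood in both lists (93.1%, against 86.8% of all such sites). Of the 15 sites higher in MDA-468, 2 stood in both (13.3%, against 4.88%).

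In the authors' deposited table, log2 fold changes of member sites toward MCF-10A ran from -2.98 to -0.672 around a median of -2.02, and the median over all genes was -1.96. Sites of members higher in MDA-468 had a median of 3.52, from 1.76 to 5.32, in the authors' deposited table, against 3.09 over all genes. Enrichment over input, also from the authors' deposited table, had a median of 26.9 (2.24 to 124) for those higher in MCF-10A and 9.22 (1.30 to 50.7) for those higher in MDA-468. Over all genes these medians were 23.0 and 4.32 in the authors' deposited table, so the difference between the directions is not particular to members. Each site had 1 enrichment value, given for the comparison and not for either line, so these medians are not enrichments within MCF-10A or MDA-468. The values have no spread between libraries.

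FOXD2-AS1, read next to the forkhead gene FOXD2, had the largest value toward MDA-468 in the authors' deposited table, 5.32 at chr1:47899269-47899448, with a fold enrichment of 4.61. The log10 peak p-value of this site, -5.77, was the weakest of the 87 member sites in the authors' deposited table. By fold change, VPS9D1-AS1 followed in the authors' deposited table with 5.04, an enrichment of 9.22 and a log10 peak p-value of -9.38. LINC02591 had 3 sites in the authors' deposited table toward that line, with 5.0, 5.0 and 3.16, and the shared sequence named above applies to each. LINC01128 had 4.59, LINC00997 4.40, LINC00999 3.55, LINC01061 3.02 and TLR8-AS1 1.84 in the authors' deposited table. The enrichment of LINC00999, 50.7, was the highest of those toward MDA-468 in the authors' deposited table.

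Toward MCF-10A, the largest value in the authors' deposited table was that of ARHGEF26-AS1, -2.98, with an enrichment of 5.08. LINC00674 (-2.81), LINC00652 (-2.74), ARRDC3-AS1 (-2.72), LINC01501, LINC01289 and DNAJC27-AS1 (-2.70 each) and HECTD2-AS1 (-2.66) followed in the authors' deposited table. PAXBP1-AS1 had the highest enrichment in the authors' deposited table, 124, with a log2 fold change of -2.24. MAGI2-AS3 had an enrichment of 92.2 and a log2 fold change of -2.61, and KLF3-AS1 87.6 and -1.74, in the authors' deposited table. Next by enrichment in the authors' deposited table were LINC00908 (69.1), DLX6-AS1 (64.5) and LINC00092 (55.3). Both SNHG genes in the authors' deposited table were toward MCF-10A, SNHG20 with -2.53 and SNHG7 with -1.26.

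In the authors' deposited table, the remaining LINC genes toward MCF-10A were LINC00294, LINC00470, LINC00485, LINC00547, LINC00574, LINC00649, LINC00663, LINC00665, LINC00670, LINC00910, LINC00924, LINC00963, LINC01012, LINC01133, LINC01235, LINC01502, LINC01530, LINC01531, LINC01569, LINC01907, LINC02245, LINC02249, LINC02582, LINC02891, LINC02894, LINC02897, LINC02898, LINC02982 and LINC03025. The remaining antisense genes there included CCDC18-AS1, CKMT2-AS1, DHRS4-AS1, ENTPD1-AS1, EPHA1-AS1, ERCC6L2-AS1, INHBA-AS1, KIAA1671-AS1, LEMD1-AS1, MZF1-AS1, PRR7-AS1, PTPRG-AS1, RAMP2-AS1, RASAL2-AS1, SAP30L-AS1, SEC24B-AS1, SLC25A25-AS1, SLFNL1-AS1, STAU2-AS1, TMEM254-AS1 and ZNF566-AS1. By type, the authors' deposited table held 39 LINC sites toward MCF-10A and 11 toward MDA-468, and 30 and 3 antisense sites.

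The 3 members with sites in both directions differed along their length. LINC01160, on the minus strand of chromosome 1, had a value of -2.55 at its 3′ site and 1.76 at its 5′ site in the authors' deposited table, with enrichments of 24.5 and 24.6. In the lists, the 3′ LINC01160 site had p-values of 1e-228 (MCF-10A) and 1.6e-32 (MDA-468), while the 5′ site had 1e-32 and 1e-195. LINC00674 had -2.81 at chr17:66127342-66127581 and 3.52 at chr17:66130125-66130484 in the authors' deposited table. In the lists, a LINC00674 site at the former place stood in MCF-10A only and at the latter in MDA-468 only. LINC01000 had 3.13 and 3.0 toward its 5′ side and -0.901 and -1.38 toward its 3′ side in the authors' deposited table.

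**Figure D4:**
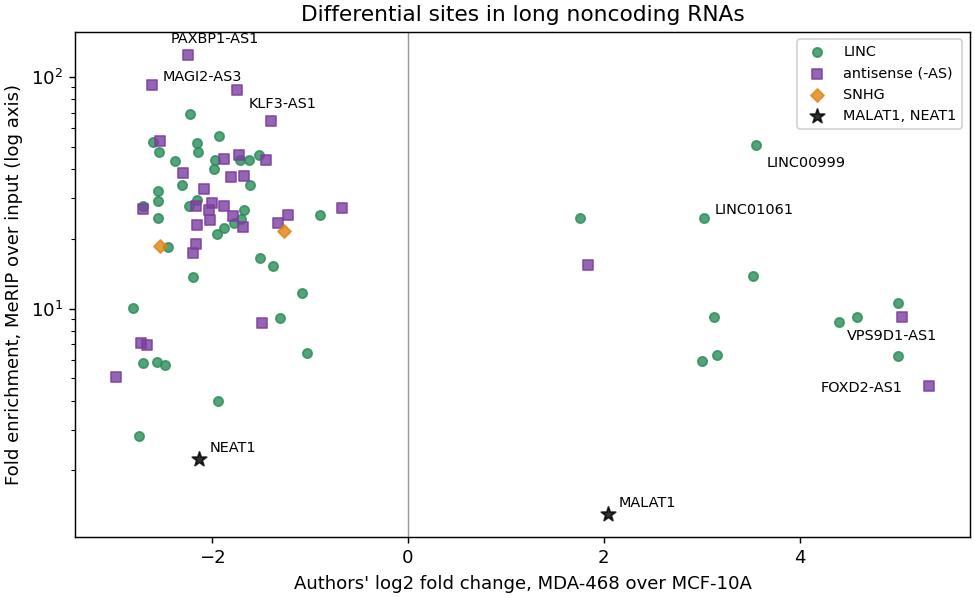
Each of the 87 differential sites in members by the authors' log2 fold change (MDA-468 over MCF-10A, horizontal) and fold enrichment of MeRIP over input (log axis, vertical), coloured by type. The 72 sites to the left are mostly of higher enrichment, with a median of 26.9, than the 15 to the right, with 9.22. Over all sites of the authors' deposited table, not drawn here, these medians are 23.0 and 4.32. MALAT1 and NEAT1 lie at the bottom with 1.30 and 2.24.

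An antisense RNA may overlap the gene it is named for, and the labels do not say whether reads kept their strand, so reads from the 2 strands cannot be told apart here. Within a list, 6 member sites overlapped a site on the opposite strand in MCF-10A (1.65%, against 1.54% of all sites) and 6 in MDA-468 (1.34%, against 1.29%). In MCF-10A these were ZEB2-AS1 with ZEB2, ADIPOQ-AS1 with ADIPOQ, MIR3936HG with SLC22A4, HOXA-AS3 with HOXA7, LINC02523 and LINC01530. In MDA-468 they were C2CD4D-AS1 with C2CD4D, HOXA-AS3 with HOXA7, HOXB-AS3 with HOXB6, LINC00957 with RASA4CP, and again LINC02523 and LINC01530. ZEB2-AS1, which covers the start of the gene for the EMT regulator ZEB2, had a site of 115 nt over 3 blocks in MCF-10A only (p-value 1.6e-15).

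Of the antisense members, 165 had a partner gene of the same name in the gene table. The partner had a site in the same list for 23 of 121 antisense members in MCF-10A (19%, interval 12.4 to 27.1%), against 15.2% of all 20056 protein-coding genes. In MDA-468 this held for 43 of 141 (30.5%, interval 23.0 to 38.8%), against 22.4%. In 112 pairs the partner had no site. Both genes had sites in both lines in 17 pairs, and both had sites in MDA-468 only in 10. In 21 pairs 1 gene was marked in both lines and the other in 1, and in 4 pairs the genes were marked in opposite lines only. Those 10 partners were C2CD4D, CFAP65, COL4A2, DIP2C, DNAH17, EGFR, GATA3, MCF2L, PITRM1 and SSTR5. Both had sites in MCF-10A only in 1 pair, ZEB2-AS1 and ZEB2. Sites of ZEB2-AS1, ADIPOQ-AS1 and C2CD4D-AS1 overlapped sites of their partners on the opposite strand. In these pairs the same signal may be counted for both genes, and they were kept in the counts above. GATA3-AS1, which starts beside the luminal breast regulator GATA3 and runs away from it, had sites of 60 nt (p-value 1.3e-08) and 179 nt (3.2e-13) in MDA-468.

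Of 55 symbols of well-studied long noncoding RNAs, listed from general knowledge with earlier results of these data known, 54 were in the gene table, of which 17 had a row in the files and 37 had none. Among all 4428 symbols fitting the naming rule, which not all listed RNAs fit, 8.24% had one. OIP5-AS1, KCNQ1OT1, NORAD, FTX, DLEU2, MIR210HG, SNHG7, SNHG16 and SNHG20 had a site in both lines, ZEB2-AS1, MIR17HG and SNHG3 in MCF-10A only, and MALAT1, H19, HOXA11-AS and CDKN2B-AS1 in MDA-468 only. NEAT1 was in the differential table alone. OIP5-AS1, a cytoplasmic RNA conserved among vertebrates, had 2 sites in each line on chromosome 15. Its first lay at 41590849 to 41591144 in MCF-10A (p-value 3.2e-96) and at 41590819 to 41591144 in MDA-468 (1.3e-18). CDKN2B-AS1, an RNA of the locus of the CDKN2A and CDKN2B cell cycle inhibitors, had 1 site of 120 nt in MDA-468 (4e-10). Whether both lines carry and express this locus was not analysed here. DSCAM-AS1, known from estrogen receptor-positive breast cancer, had a site in both lines, of 271 nt (2e-29) and 181 nt (3.2e-14). MEG3, HOTAIR, GAS5, TUG1, UCA1, DANCR and ZFAS1 were among those with no site in either list, which does not show that they lack the mark.

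The repeat word given above was unevenly spread over the patterns of the lists as deposited. Membership of these patterns depends on list length, and word shares and GC content were not computed with lists of equal length. Transcripts in GENCODE v29 were found for 347 of the 365 members (95.1%). The word, in either orientation, was in the transcripts of 168 of them (48.4%, interval 43.0 to 53.8%). It was held by 129 of 213 members with sites in both lines (60.6%, interval 53.7 to 67.2%), 27 of 50 marked only in MCF-10A (54.0%, interval 39.3 to 68.2%) and 12 of 83 marked only in MDA-468 (14.5%, interval 7.7 to 23.9%). Among 3150 genes that fit the naming rule and had no site, 375 held it (11.9%, interval 10.8 to 13.1%). The word was picked as the one in the largest number of members, and most members are marked in both lines. A higher share in members than in genes without a site is therefore partly fixed by that choice. So is a higher share in members marked in both lines than in the other member groups. Nothing is read from either. Of the members with the word, 51 held it in the forward orientation only, 87 in the reverse only and 30 in both.

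The order of the 3 member groups was the same in LINC and antisense genes and in short and long transcripts. These splits hold the same genes that chose the word, so they add no independent support, and no cause is read from them. Among LINC members, the word was held by 58.6% of those marked in both lines, 50.0% of those marked only in MCF-10A and 13.9% of those marked only in MDA-468. Among antisense members the shares were 60.0%, 52.2% and 15.9%. Longer transcripts have more room for a word, and the median longest transcript was 2634, 2231 and 2214 nt in the 3 patterns and 960.5 nt in genes without a site. All transcripts of a gene were searched, and their median number was 3, 3, 2 and 1 in the same order. Among genes whose longest transcript was at most 2500 nt, the shares were 56.5%, 50.0% and 9.62%, and 8.63% without a site. Above that length they were 63.6%, 60.0% and 22.6%, and 29.9% without a site. For members marked only in MDA-468, the intervals were 3.2 to 21.0% (5 of 52) for short and 9.59 to 41.1% (7 of 31) for long transcripts. Both intervals hold the share of genes without a site, so no order of these 2 groups is read. The median GC content of the longest transcript was 46.9% in members with sites in both lines, 46.5% with MCF-10A only, 52.4% with MDA-468 only and 46.1% without a site. Members chosen for a site in 1 line differ in more than 1 of these values, and what the word has to do with antibody enrichment or with read alignment was not tested.

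**Figure D5:**
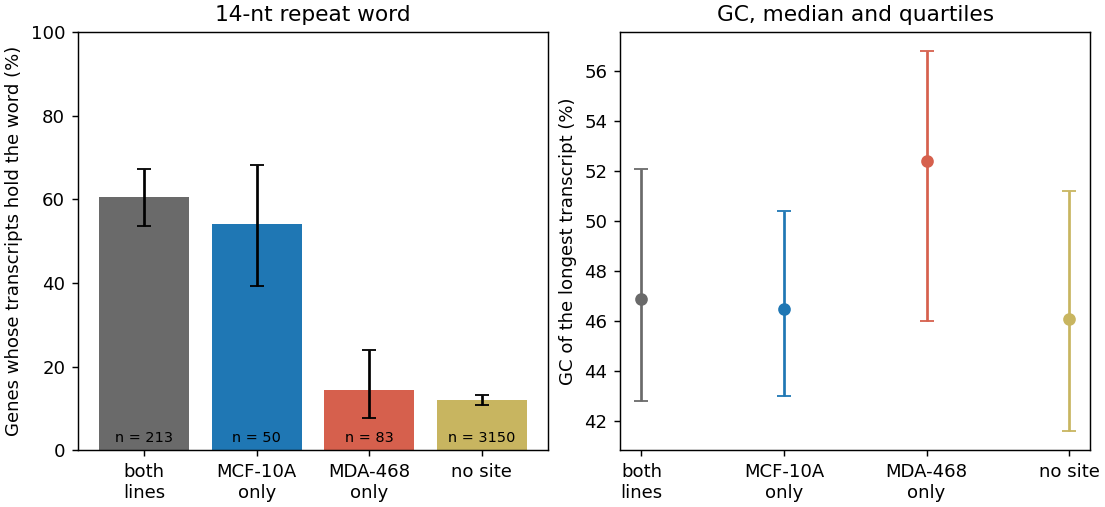
Left, share (%) of genes whose GENCODE transcripts hold the 14-nt word, by the line in which the gene had a site in the lists as deposited, with exact Clopper-Pearson 95% intervals as bars. Right, median and quartiles of the GC content (%) of the longest transcript. The word was chosen on the members, so their shares are a description; the MDA-468-only members have the lowest share of the 3 member groups, 14.5%, and the highest median GC, 52.4%.

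Values of the sites are given by the word as well, although the split by pattern above enters them too and was not separated. The median −log10 p was 52.8 with the word and 36.3 without in MCF-10A, and 16.2 and 12.4 in MDA-468. Shares of sites overlapping the other list were 74.0% with the word and 72.6% without in MCF-10A, and 81.4% and 44.0% in MDA-468. By the authors' deposited table, the word was held by 44 of 66 members with a site toward MCF-10A (66.7%, interval 54.0 to 77.8%). It was held by 2 of 9 toward MDA-468 (22.2%, interval 2.81 to 60.0%), where 9 of 12 genes had a transcript. These genes are among the members that chose the word, so the split is no independent support. Member sites toward MCF-10A stood in both lists for 67 of 72, and those toward MDA-468 for 2 of 15. The split thus partly repeats that by pattern, and nothing is read from it. For sites toward MCF-10A, the median fold enrichment in the authors' deposited table was 32.7 in genes with the word (45 sites) and 13.2 in those without (22 sites). All 7 SNHG members and 4 of the 6 MIR host genes held the word, while MALAT1, NEAT1, H19, MIR17HG, EGFR-AS1, HOXA-AS3 and LINC02591 did not.

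Reads from sequence that several genes share cannot be given to 1 gene with certainty. The median member had 2.69% of its 50-nt words, the length of a read, in transcripts of other genes, and 68 members had none. Only the longest transcript of each member was used, and only exact matches to annotated transcripts were counted. Near matches and copies elsewhere in the genome were not, so a low share does not show that reads fit 1 place only. In 13 members the share was above 50%, led by LINC00261 (97.3%), LINC01002 (91.7%), LINC00319 (89.6%), EML2-AS1 (83.3%), LINC01001 (82.9%) and LINC02591 (82.9%), followed by RBM5-AS1, A1BG-AS1, LINC02523, LINC01347, ZEB2-AS1, LINC00869 and ADIPOQ-AS1. Sites in these genes are uncertain as to their source. The share could not be measured for the 18 members without a matched transcript, LINC00999, LINC01000 and LINC01061 among them. The share was 4.63% in MALAT1, 2.87% in H19, 1.66% in NEAT1 and 5.01% in EGFR-AS1, but 45.5% in SNHG16, 45% in HOXA-AS3 and 41.5% in SNHG7. Overlapping genes on the same or opposite strand add to this share.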

How the data were processed

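The authors deposited 1 merged m5C site list a line and 1 differential table. The submitters' processing notes name TopHat and hg19. Per the file headers, Tophat2 aligned the reads and exomePeak found differential sites on UCSC known genes. Not given in the sources used here are the pooling of replicates and whether the technical repeats entered. Each site carried a p-value from the authors. The differential table held a fold enrichment (a ratio of MeRIP over input), a log2 fold change and log10 values on a score scale, all deposited by the authors. Its title line and its name gave opposite directions. Of 389 sites with a positive value, 381 overlapped an MDA-468 site and 19 an MCF-10A site, so positive was read as higher in MDA-468.

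Identifiers were named through a RefSeq gene table (3677 of 3704, 5249 of 5280 and 1523 of 1535). Sites without an identifier (164, 524 and 58) were left out of gene counts. Overlaps, checked on simulated sites, used exon blocks. GENCODE v29 transcripts gave words, GC content and length, with no coordinates mixed between builds. Tools were pandas 2.3.3 and numpy 2.4.6 in Python 3.11.15, scipy 1.17.1 for intervals and matplotlib 3.10.9 for plots. Named genes are members with 2 or more sites in a list or a differential site, the SNHG and MIR host genes, H19, MALAT1, NEAT1, and the 5 smallest p-values and 5 longest sites of each list. Any other member, such as DSCAM-AS1 or CDKN2B-AS1, was chosen after its values were seen. 1 gene that the rule names is not reported here. Members and lists were chosen with earlier results of these data known.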

Additional observations from a re-analysis of the deposited data

How the results depend on the processing

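No paired analysis was possible because the files hold merged lists with no values per library, and no replicate could be left out for the same reason. Of 50 alternatives over 12 results, 30 stayed within 1.5 times the reported count, or within the 95% interval of a share or median, and 20 did not. Those intervals are wide for opposite-strand overlap of antisense sites, which rests on 3 sites a list. It was 3.11% in MCF-10A and 3.02% in MDA-468 by whole span, against 1.86% and 1.51%, and in MDA-468 0.752% with the p-value limit, 0.775% with equal lengths and 1.01% with a stricter overlap. Taking lists of equal length, 90 members had a site only in MCF-10A and 43 only in MDA-468, 59.0% of MCF-10A and 71.7% of MDA-468 member sites were shared, and the median MDA-468 length was 239 nt. With a p-value limit of 1e-10 the values were 87, 48, 59.9%, 70.6% and 239 nt. At equal length only the MDA-468 list was shortened, and the limit left 5148 MCF-10A and 5371 MDA-468 sites. Without antisense genes there were 196 members, 123 in both lines, 28 in MCF-10A only, 44 in MDA-468 only and 42 differential sites higher in MCF-10A. With all noncoding genes the counts were 593, 360, 82, 150 and 118. These changes follow from the smaller and larger gene sets. Depth is unknown, so weak sites in either list cannot be compared.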
